A study of Mus musculus with 6 samples.

Results

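Proteasome genes were examined in MN9D cells, a mouse dopaminergic cell line, that overexpressed the transcription factor Lmx1a. They were chosen by name, as every array probe whose mouse gene symbol begins with Psm, then a letter from a to g and a number. The rule matched 63 of 31769 probes and 51 of 17865 named genes. Of these, 47 genes encode proteasome subunits, activators, an inhibitor or assembly chaperones, and the other four matched by spelling only (the pseudogenes Psmb5-ps and Psmb6-ps and the genes Psmc3ip and Psme3ip1). Probes were matched for the 14 genes of the constitutive 20S core and for 17 genes of the 19S base and lid. Psmb11, the thymus-specific core subunit, had no matching probe. The lid subunit Sem1 is not among the 17, because the rule does not match its symbol.

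The proteasome is the main protease of the cytosol and nucleus and degrades proteins that carry ubiquitin chains. Its 20S core is a barrel of alpha and beta rings, and the beta subunits Psmb5, Psmb6 and Psmb7 carry the active sites inside it. The 19S regulatory particle caps the barrel: its base holds a ring of ATPases that unfold substrates and open the gate, and its lid removes ubiquitin. In dopaminergic neurons, as in other neurons, the proteasome is part of the handling of misfolded and short-lived proteins.

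Each Lmx1a sample was RNA pooled from 3 dishes of 10 cm transfected with pcDNA3.1(-)-Lmx1a (6 ug per transfection), and the control was a pool from 9 dishes given an equimolar amount of the empty pcDNA3.1(-) vector. Plasmid pBluescript SKII(+) was added to all as carrier, and transfection was transient, by lipofection. The 3 Lmx1a pools were each hybridised against the same control pool on 2 two-colour arrays with the dyes exchanged, which gave 6 arrays. Whether each pool came from its own transfection is not stated, so p-values cover no more than the spread between the 3 pools, and the spread of the control, which was 1 pool, does not enter. Values below are log2 ratios of Lmx1a over control: a pool's value is the mean of its 2 arrays, a gene's value is the mean of its brightest probe over the 3 pools with the SD (n = 3), and p-values are from limma with Benjamini-Hochberg adjustment over all probes, with a threshold of 0.05. MN9D is a hybrid of embryonic mouse midbrain cells and neuroblastoma cells, so it is a dividing line and not a neuron.

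Lmx1a itself stood at 2.49 ± 0.68, a ratio of 5.61-fold, with pool values of 1.71, 2.78 and 2.97, all 6 arrays above 0 and a limma adjusted p of 0.0779. With the 6 arrays fitted with the pool as a replicate block, its limma adjusted p was 0.0121, past the threshold. The correlation within a block was estimated at 0.068. The block fit therefore counted the 6 arrays almost as 6 replicates, although they hold 3 Lmx1a pools and 1 control pool. Of the 7 dopaminergic markers, 5 were detected on every array (Th, Ddc, Slc18a2, Nr4a2 and Gch1), whereas the dopamine transporter Slc6a3 and the transcription factor Pitx3 were detected on 0 arrays. The median signal above background lay between 12.9 and 42.4 units in Cy5 and between 9.02 and 20.7 in Cy3, and the array of pool 1 with Lmx1a in Cy3 was the dimmest. Detection required a spot mean above the local background median plus 2 background SDs. All 47 proteasome genes met this in 1 channel or both on each of the arrays, as were 56 of the 63 probes, against 44.9% of all probes.

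No proteasome gene passed the test. Of the 63 probes, 0 were called by limma, as were 0.00% of all 31769 probes, and the smallest adjusted p among the 63 was 0.182, for Psma1. The replicate block fit called 0 of the 63 probes too, with a smallest adjusted p of 0.114 for Psmd14, while it called 0.299% of all probes higher and 0.749% lower. The largest difference among the 47 genes was 0.093 (Psma8). The 95% limma intervals of the 47 genes lay within -0.19 and 0.18, that is between 0.877-fold and 1.14-fold of the control. These sizes hold for the main background correction (normexp) only. With plain background subtraction in its place, Psma8 stood at 0.27 and Psmg4 at -0.20, outside these limits. Psma1 went the other way and was smaller, at 0.069 against 0.090. In RNA from whole dishes, fewer cells with a change and less change of RNA per cell cannot be told apart.

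At an unadjusted p under 0.05, 7 of the 47 genes were higher (14.9%) and 4 were lower (8.51%). The same threshold held for 6.23% of all probes on the higher side and 5.56% on the lower side, and for 11.7% and 8.05% of the genes detected on every array. The 47 genes were bright, with a median log2 intensity of 9.23. Among detected genes of mean log2 intensity 9 to 10 the shares were 22.1% and 11.2%, above those of the 47 genes. The 7 on the higher side were Psma1, Psma8, Psmc1, Psmc3, Psmc4, Psmd3 and Psmd14, of which 5 belong to the 19S particle. The 4 on the lower side were Psma3, Psmb3, Psmd1 and Psmg4. The direction was the same on all 6 arrays, and positive, for 4 genes (Psmc1, Psmc3, Psmc4 and Psmd14), all of the 19S particle, against 2.66% of all probes and 4.64% of detected genes. It was negative on all 6 arrays for Psmg4 alone, against 2.61% of all probes and 3.06% of detected genes. Of the 47 genes, these were 8.51% and 2.13%. Among detected genes of intensity 9 to 10, 6.99% were positive and 4.51% negative on all 6 arrays.

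**Figure D1:**
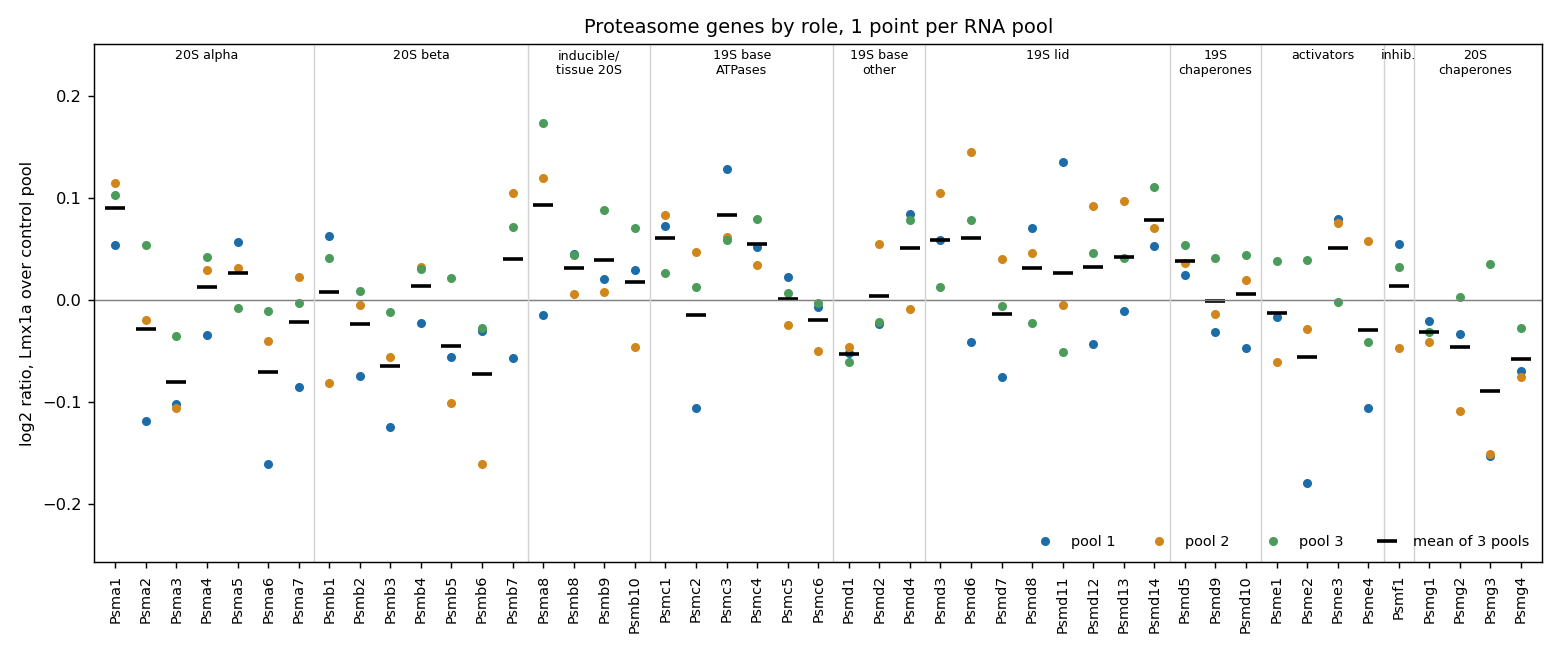
Log2 ratio of Lmx1a over the control pool for the 47 proteasome genes (brightest probe), grouped by role, with 1 point per RNA pool (mean of 2 dye-swapped arrays) and a bar at the mean of 3 pools. All gene means lie between -0.089 (Psmg3) and 0.093 (Psma8), and the points of most genes fall on both sides of 0.

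Upstream sequences of 5 genes are shown here because the text turns on them: Psma1 had the smallest adjusted p, Psmc1 and Psmd14 were positive on all 6 arrays, and Psmb5 and Psmb6 carry active sites of the core. The window of Psmc4, also positive on all 6 arrays, held neither motif described here and is not printed. Each is the 250 bases before the gene's start in RefSeq (GRCm38.p6), read 5′ to 3′ along the gene. Psma1 lies at chr7:114276117-114276366 (minus strand), Psmc1 at chr12:100109952-100110201 (plus strand), Psmd14 at chr2:61711444-61711693 (plus strand), Psmb5 at chr14:54617996-54618245 (minus strand) and Psmb6 at chr11:70525107-70525356 (plus strand). Capitals mark 2 motifs found on either strand: the CCAAT box bound by NF-Y, in Psma1, Psmc1 and Psmd14 (printed as ATTGG where it lies on the other strand), and TGACNNNGC, the core of the antioxidant response element bound by NRF1 and NRF2, in Psmb5 and Psmb6. No stretch was shared by both motifs in these 5 sequences.
Psma1: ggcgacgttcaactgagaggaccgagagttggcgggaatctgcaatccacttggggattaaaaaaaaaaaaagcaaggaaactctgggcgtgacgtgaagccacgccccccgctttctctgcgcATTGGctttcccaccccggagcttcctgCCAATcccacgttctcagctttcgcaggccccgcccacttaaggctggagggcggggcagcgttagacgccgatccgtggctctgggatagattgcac
Psmc1: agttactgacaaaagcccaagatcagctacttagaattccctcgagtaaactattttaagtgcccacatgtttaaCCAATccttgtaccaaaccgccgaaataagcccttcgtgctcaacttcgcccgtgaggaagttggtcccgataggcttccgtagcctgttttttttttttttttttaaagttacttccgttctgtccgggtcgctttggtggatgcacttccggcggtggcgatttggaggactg
Psmd14: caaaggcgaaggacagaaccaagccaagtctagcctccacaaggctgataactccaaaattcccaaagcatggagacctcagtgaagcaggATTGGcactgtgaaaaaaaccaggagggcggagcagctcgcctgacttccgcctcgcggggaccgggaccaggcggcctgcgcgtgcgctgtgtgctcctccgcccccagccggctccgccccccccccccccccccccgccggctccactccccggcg
Psmb5: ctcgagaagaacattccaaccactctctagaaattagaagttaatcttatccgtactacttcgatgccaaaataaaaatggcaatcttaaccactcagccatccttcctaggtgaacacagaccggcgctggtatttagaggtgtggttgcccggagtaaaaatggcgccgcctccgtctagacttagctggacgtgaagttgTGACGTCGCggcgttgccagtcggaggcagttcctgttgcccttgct
Psmb6: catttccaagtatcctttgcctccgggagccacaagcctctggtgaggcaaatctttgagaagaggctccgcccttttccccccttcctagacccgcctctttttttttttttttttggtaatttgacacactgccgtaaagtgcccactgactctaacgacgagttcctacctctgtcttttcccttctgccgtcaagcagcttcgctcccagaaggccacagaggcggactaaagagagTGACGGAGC

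NRF1, the product of Nfe2l1, is known to raise proteasome gene transcription when proteasome activity is blocked. A promoter was listed for 39 of the 47 genes. The TGACNNNGC motif was present in 5 of these (12.8%), against 11.5% of 27025 mouse genes with a listed promoter. CCAAT was present in 13 (33.3%), against 37.5% of all genes. By particle, CCAAT was found in 6 of 11 core genes (54.5%) and 4 of 14 genes of the 19S particle (28.6%), and TGACNNNGC in 2 of 11 and 2 of 14. A match describes these letters in this window and says nothing of binding.

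In the alpha ring, which forms the gated ends of the core, the median over 7 genes was -0.022, with 3 genes above 0 and 4 below. That sign rests on pool 1 and on the dye orientation: the median was 0.012 without pool 1, with 5 of 7 genes above 0, and 0.018 with the Lmx1a RNA in Cy5 only against -0.046 in Cy3 only. Psma1 gave -0.14, 0.099 and 0.097 in pools 1, 2 and 3 when Cy5 carried the Lmx1a RNA (called Cy5 arrays below) and 0.25, 0.13 and 0.11 when Cy3 carried it (Cy3 arrays). The pool values of 0.054, 0.12 and 0.10 were all above 0, and 1 array, that of pool 1 in Cy5, was below it. Its mean was 0.090 ± 0.032 (limma adjusted p = 0.182), but -0.014 when arrays were centred on their median in place of loess. Psma3 gave -0.016, 0.0056 and 0.13 in Cy5 and -0.19, -0.22 and -0.20 in Cy3. The 2 orientations of Psma3 did not overlap: all 3 Cy3 arrays were well below 0 and the Cy5 arrays lay near or above it. The mean was -0.081 ± 0.040 (limma adjusted p = 0.241). Psma6 stood at -0.071 ± 0.079, with pool 1 at -0.16 and pools 2 and 3 at -0.041 and -0.011. The other four alpha genes, Psma2, Psma4, Psma5 and Psma7, lay between -0.028 and 0.027, each with pools on both sides of 0.

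The beta ring had a median of -0.023 over 7 genes, again with 3 genes above 0 and 4 below. Without pools 1, 2 and 3 it was -0.020, -0.017 and -0.039. On the Cy5 and Cy3 arrays alone it was -0.063 and -0.024. The pool medians were -0.056, -0.056 and 0.022, so pool 3 lay on the other side of 0. Of the catalytic subunits, Psmb6, which cuts after acidic residues, stood at -0.073 ± 0.076, with pool values of -0.030, -0.16 and -0.028. All 3 pools of Psmb6 were below 0, and pool 2 was far below the other two. Psmb5, the chymotrypsin-like subunit, stood at -0.045 ± 0.062 with pool values of -0.056, -0.10 and 0.022. Psmb7, the trypsin-like subunit, stood at 0.040 ± 0.085 with pool values of -0.057, 0.11 and 0.072. For Psmb5 and Psmb7 the pools fell on both sides of 0. Psmb3, a structural subunit, gave pool values of -0.12, -0.056 and -0.011, all below 0, with a mean of -0.064 ± 0.057 (limma adjusted p = 0.415). The remaining structural subunits Psmb1, Psmb2 and Psmb4 lay between -0.023 and 0.014. The active-site subunits of the core thus did not share a direction, and none passed the test.

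Interferon-inducible or tissue-specific core subunits had gene means above 0 in 4 of 4 cases, with a median of 0.035. Without pool 3 the median was 0.020, with 3 of 4 above 0, and on the Cy5 arrays alone it was 0.012, with 2 of 4 above 0. Psmb8, Psmb9 and Psmb10 replace the catalytic subunits in the immunoproteasome and stood at 0.032 ± 0.023, 0.039 ± 0.043 and 0.018 ± 0.059. Psmb8 and Psmb9 were above 0 in all 3 pools, but the 2 further probes of Psmb9, detected on 1 and on 0 arrays, gave 0.030 and -0.012. Psma8, the testis-specific alpha subunit, gave 0.048, 0.30 and 0.21 in Cy5 and -0.076, -0.063 and 0.13 in Cy3. Its mean of 0.093 ± 0.096 had a limma adjusted p of 0.418, and its arrays overlapped 0 in the Cy3 orientation. Of 13 measured genes of the interferon and antigen presentation list, 0 had an unadjusted limma p under 0.05, and their median was 0.0021.

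The ATPases of the 19S base form the ring that unfolds substrates, and their median was 0.028, with 4 of 6 genes above 0. After median centring it was 0.0075, with 3 of 6 above 0. Psmc3 gave 0.085, 0.065 and 0.10 in Cy5 and 0.17, 0.059 and 0.017 in Cy3, so that all 6 arrays were above 0 in both orientations. Its mean was 0.083 ± 0.039 (limma adjusted p = 0.226). Psmc1 gave 0.11, 0.14 and 0.029 in Cy5 and 0.034, 0.023 and 0.024 in Cy3, again all above 0. The mean of Psmc1 was 0.061 ± 0.030 (limma adjusted p = 0.303). Psmc4 stood at 0.055 ± 0.023 on its brightest probe, with all 6 arrays above 0 (limma adjusted p = 0.312). Its 2 dimmer probes, also detected on every array, gave -0.0068 and -0.0079, so the probes of Psmc4 disagree. The other three ATPases were close to the control: Psmc2 stood at -0.015 ± 0.080, Psmc5 at 0.0013 ± 0.024 and Psmc6 at -0.020 ± 0.026.

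Among the base subunits that are not ATPases, the scaffold Psmd1 gave pool values of -0.052, -0.046 and -0.061. These lay close together and all below 0, and 5 of 6 arrays were negative. The single arrays spread more: -0.0012, 0.065 and -0.11 in Cy5 and -0.10, -0.16 and -0.014 in Cy3. The mean was -0.053 ± 0.0073 (limma adjusted p = 0.288, and 0.526 with the replicate block). A dimmer probe of Psmd1, detected on 1 array, gave 0.0091. The other scaffold, Psmd2, stood at 0.0035 ± 0.045, and the ubiquitin receptor Psmd4 at 0.051 ± 0.052, both with pools on either side of 0. Their dimmer probes gave -0.051 for Psmd2, detected on 1 array, and 0.028 for Psmd4, detected on every array.

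Of the 8 lid genes that the rule matched, 2 were above 0 in all 3 pools and 0 were below 0 in all 3. Means were above 0 for 7 of the 8, with a median of 0.037. The size of that median depended on the arrays used: it was 0.064 without pool 1 and 0.021 without pool 2, and 0.056 on the Cy5 arrays alone against 0.019 on the Cy3 arrays alone. Psmd14, the metalloprotease that cuts ubiquitin chains off substrates, gave 0.080, 0.13 and 0.11 in Cy5 and 0.026, 0.012 and 0.11 in Cy3. All 6 arrays were above 0, and the mean was 0.078 ± 0.030 (limma adjusted p = 0.215, and 0.114 with the replicate block). The structural subunit Psmd3 gave pool values of 0.059, 0.10 and 0.013, all above 0, with a mean of 0.059 ± 0.046 (limma adjusted p = 0.392). Its Cy5 arrays averaged 0.12 and its Cy3 arrays -0.0055. Psmd6 stood at 0.060 ± 0.094, with pool 1 at -0.041 and pools 2 and 3 at 0.14 and 0.078. The structural subunits Psmd8, Psmd11, Psmd12 and Psmd13 lay between 0.027 and 0.042, each with pools on both sides of 0. Psmd7, the partner of Psmd14, was the 1 gene below 0 among these 8, at -0.013 ± 0.059.

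Sem1, a small lid subunit whose symbol the rule does not match, went the other way. It stood at -0.11 ± 0.047 with 6 of 6 arrays below 0 (limma adjusted p = 0.163, and 0.0698 with the replicate block). Adrm1, from the list of ubiquitin factors and also not matched, stood at 0.020 ± 0.079 with 4 of 6 arrays above 0. Neither gene is counted in the lid median or among the 17 genes of the base and lid.

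**Figure D2:**
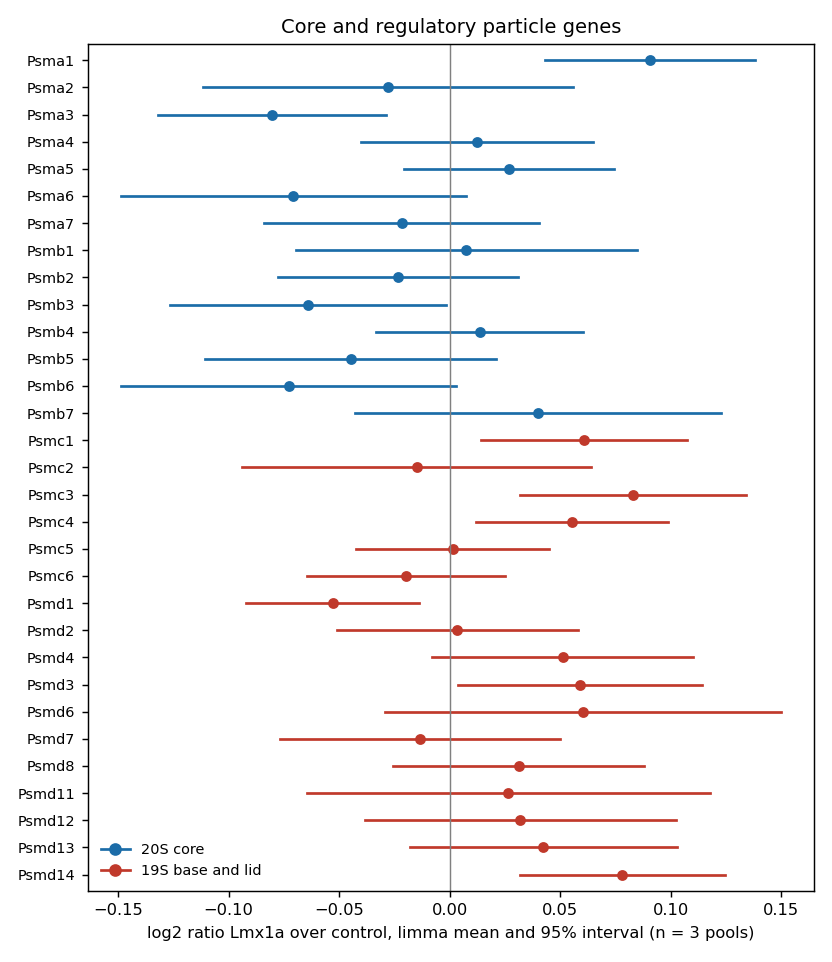
Mean log2 ratio of Lmx1a over control (points) and 95% limma interval (lines, n = 3 pools) for the 14 core genes and the 17 genes of the 19S base and lid. The intervals of Psma1, Psmc1, Psmc3, Psmc4, Psmd3 and Psmd14 lie above 0 and those of Psma3, Psmb3 and Psmd1 below it, before any adjustment for the number of probes.

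Comparing the particles, the median of the 14 core genes was -0.023, with 6 genes above 0 and 8 below, and that of the 17 genes of the base and lid was 0.032, with 13 above 0 and 4 below. Over all detected genes the median was 0.0032, and 53.4% were above 0. All 3 pools were positive for 1 core gene and 5 genes of the 19S particle (7.14% and 29.4%), against 21.7% of detected genes and 16.7% of all probes. All 3 were negative for 4 and 2 genes (28.6% and 11.8%), against 16.5% of detected genes and 15.8% of all probes. Among detected genes of mean log2 intensity 9 to 10, where the median intensity of the 19S particle lies, 29.5% were positive and 16.7% negative in all 3 pools. Among those of 10 to 11, where that of the core lies, 28.5% were positive and 19.6% negative. Intensity ran from 8.01 (Psmc4) to 10.2 (Psmd7) in the 19S particle and from 8.90 (Psma3) to 11.9 (Psma1) in the core. These shares are therefore matched on the medians and not gene by gene. In pools 1, 2 and 3 the core median was -0.056, -0.012 and 0.015, and the median of the 19S particle was 0.022, 0.047 and 0.013. The core median minus that of the 19S particle was -0.078 in pool 1, -0.059 in pool 2 and 0.0021 in pool 3. The core was lower in 2 of 3 pools and equal to the 19S particle within 0.0021 in the third.

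The mean of this difference was -0.045 ± 0.042 (SD, n = 3), a size about equal to its spread between pools. By array it was -0.14, -0.11 and 0.035 on the Cy5 arrays and -0.035, -0.032 and -0.046 on the Cy3 arrays, so that the core was lower on 5 of 6 arrays. Its size rests partly on single pools: it was -0.029 without pool 1, -0.038 without pool 2 and -0.069 without pool 3. The core median itself was 0.0060 without pool 1, that is on the other side of 0, and -0.035 without pool 3, and the median of the 19S particle was 0.018 without pool 2. On the array of pool 1 with Lmx1a in Cy5, 1 of 14 core genes was above 0, whereas 7 and 9 were on the Cy5 arrays of pools 2 and 3. The spots of core genes were brighter, with a median log2 intensity of 10.1 against 9.22 for the 19S particle. Detected genes of intensity 10 to 11 and of 9 to 10 had median ratios of 0.014 and 0.016. Across the 31 genes, which share the same arrays, intensity and ratio had a Pearson r of 0.14 and a Spearman rho of 0.074. With median centring in place of loess, which leaves intensity trends in the ratios, 1 of 14 core genes and 10 of 17 genes of the 19S particle were above 0, and the difference of the medians was -0.054.

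**Figure D3:**
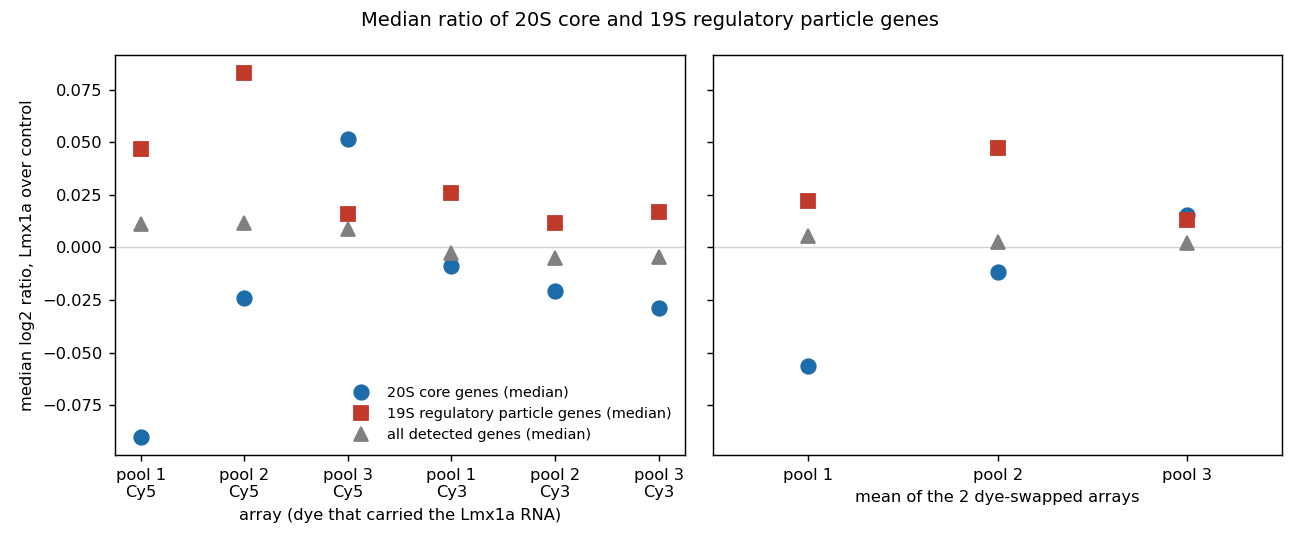
Median log2 ratio of Lmx1a over control for the 14 core genes (circles), the 17 genes of the 19S base and lid (squares) and all detected genes (triangles), by array on the left and by RNA pool on the right. The core lies below the 19S particle on 5 of 6 arrays and in 2 of 3 pools, and the pool 3 medians, at 0.015 and 0.013, nearly coincide.

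Other genes encode factors that attach to or build the proteasome. All 4 chaperones of 20S assembly had means below 0, with a median of -0.052. Psmg1 and Psmg2, which act as a pair on the alpha ring, stood at -0.031 ± 0.010 and -0.046 ± 0.057. Psmg3 stood at -0.089 ± 0.11, with pools 1 and 2 at -0.15 and -0.15 and pool 3 at 0.036, on the other side of 0. Its partner Psmg4 gave -0.056, -0.041 and -0.023 in Cy5 and -0.082, -0.11 and -0.032 in Cy3. All 6 arrays of Psmg4 were below 0, and the mean was -0.057 ± 0.026 (limma adjusted p = 0.310). Its spot was dim, and the Lmx1a channel was above background on 5 of 6 arrays. Pomp, the core maturation protein, stood at -0.032 ± 0.041 with 5 of 6 arrays below 0.

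The chaperones of 19S assembly, Psmd5, Psmd9 and Psmd10, stood at 0.038 ± 0.015, -0.0013 ± 0.038 and 0.0055 ± 0.047. Psmd5 was above 0 in all 3 pools, but its 3 Cy5 arrays averaged 0.15 and its 3 Cy3 arrays -0.073. Of the activators, the PA28 subunits Psme1 and Psme2 stood at -0.013 ± 0.050 and -0.056 ± 0.11. Both further probes of Psme1 were detected on every array and gave -0.032 ± 0.048 and -0.052 ± 0.034, the latter below 0 on 6 of 6 arrays (limma adjusted p = 0.386). The pools of Psme2 spread from -0.18 to 0.039. The nuclear PA28 subunit Psme3 stood at 0.051 ± 0.046 and the single-chain activator Psme4 at -0.029 ± 0.083. Another detected probe of Psme4 gave 0.057 ± 0.13, so its probes lay on either side of 0. Psmf1, an inhibitor of the core in vitro, stood at 0.013 ± 0.053. None of these genes passed the test.

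Proteasome-associated ubiquitin factors were measured for 22 of 30 listed genes, of which 12 were above 0 and 10 below, with a median of 0.015. At an unadjusted limma p under 0.05, 6 were higher and 2 lower (27.3% and 9.09%), against 6.23% and 5.56% of all probes and 11.7% and 8.05% of detected genes, and 0 passed after adjustment in either limma or the replicate block fit. The median log2 intensity of the 22 genes was 8.35. Among detected genes of intensity 8 to 9 the shares were 15.3% and 10.4%. Usp14, a deubiquitinase that sits on the 19S base, stood at 0.095 ± 0.016 (limma adjusted p = 0.131), with means of 0.0073 on its Cy5 arrays and 0.18 on its Cy3 arrays. Ubqln1, which shuttles ubiquitinated proteins to the proteasome, stood at 0.13 ± 0.085 with 6 of 6 arrays above 0 (limma adjusted p = 0.245). Rad23b, another shuttle factor, stood at 0.090 ± 0.058 (limma adjusted p = 0.272). Nfe2l1, which encodes NRF1, stood at -0.082 ± 0.067 with 5 of 6 arrays below 0 (limma adjusted p = 0.346), and Nfe2l2, which encodes NRF2, at -0.0055 ± 0.014. Akirin2, a carrier of proteasomes into the nucleus, stood at 0.079 ± 0.055 (limma adjusted p = 0.305), but its Cy5 arrays averaged 0.20 and its Cy3 arrays -0.039.

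Many members gave different values in the 2 dye orientations. Across the 47 genes, which share the same 6 arrays, the means of the 3 Cy5 arrays and of the 3 Cy3 arrays had a Pearson r of -0.18 and a Spearman rho of -0.18. Low agreement was not particular to these genes. Over all probes, the 2 dye-swapped arrays of pools 1, 2 and 3 had a Pearson r of -0.095, 0.032 and -0.21. A dye bias, the log2 ratio of Cy5 over Cy3 averaged over each swapped pair, passed the limma test for 5 proteasome probes, against 6.80% of all probes and 11.7% of detected genes. Psma3, Psmd5 and Psmd12 were brighter in Cy5, as were 2.65% of all probes, and Psma5 and Psmb1 were brighter in Cy3, as were 4.15%. Without pool 1 or without pool 2 the test called 2 proteasome probes. Without pool 3, with plain background subtraction or with an intensity trend and robust prior it called 0. After median centring in place of loess it called 57 proteasome probes, and 24782 of all 31769 probes. Psmc3 and Psmc4, in contrast, gave nearly equal means in both orientations, 0.084 and 0.082 for Psmc3 and 0.056 and 0.055 for Psmc4. Averaging a swapped pair cancels a dye bias only as far as it is the same on both arrays. Whether it was the same was not tested, and a bias that differs between arrays stays in the pool values.

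**Figure D4:**
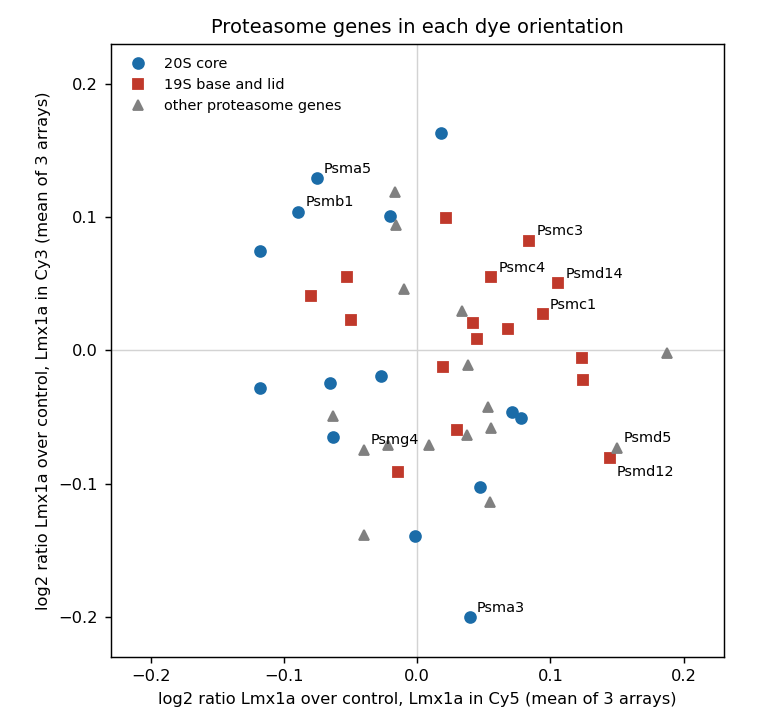
Mean log2 ratio of Lmx1a over control on the 3 Cy5 arrays (horizontal axis) and on the 3 Cy3 arrays (vertical axis) for the 47 proteasome genes, 1 point per gene. Psmc1, Psmc3, Psmc4 and Psmd14 lie in the upper right quadrant, Psmg4 in the lower left, and Psma3, Psmd5 and Psmd12 at lower right opposite Psma5 and Psmb1.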

How the data were processed

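Deposited scanner files gave the intensity of each spot and its local background in Cy5 and Cy3, per the file headers. A deposited table of the authors' log2 ratios (column medians -0.0034 to 0.0042, all turned to Lmx1a over control) correlated at 0.996 to 0.999 with ratios computed from the intensities by loess within print grids without background subtraction, with slopes of 1.00; the tool used for it is not given in the sources used here. From the intensities, background was corrected by normexp (offset 50) and dyes were normalised by loess (span 0.3), leaving out 3223 control spots, in limma 3.58.1 under R 4.3.3. Swapped arrays were turned to Lmx1a over control and averaged per pool, since the labels give both arrays of a number the same RNA. The 3 pools were fitted with lmFit and eBayes. The fit was checked on simulated data.

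Probe symbols came from the platform annotation, with 2865 updated through RefSeq. The brightest probe stood for a gene, as was needed for 8 genes with several probes. All members were described, and from other lists genes were named by rank of their p, with Pomp, Rad23b, Nfe2l1, Nfe2l2 and Akirin2 added after their values were seen. The members and lists were chosen with earlier results of these data known. The number of arrays limits the precision. Between 49.2% and 67.7% of probes were detected in the Lmx1a channel of an array.

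Alternatives were other background corrections, normalisations, variance priors, single dye orientations, the pool as a block, the authors' ratios, filtering dim probes, averaging probes and leaving out a pool.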

Additional observations from a re-analysis of the deposited data

Results flagged for a closer look

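For 5 proteasome probes the ratio differed between the 2 dye orientations by limma's test of Cy5 over Cy3. The log2 ratio of Cy5 over Cy3 was 0.11 for Psmd12 (limma adjusted p = 0.0213), 0.11 for Psmd5 (limma adjusted p = 0.0261) and 0.12 for Psma3 (limma adjusted p = 0.0227). It was -0.10 for Psma5 (limma adjusted p = 0.0347) and -0.097 for Psmb1 (limma adjusted p = 0.0363). The cause of the difference was not tested.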

How the results depend on the processing

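The core median stayed below that of the 19S particle under every alternative run, by -0.029 (without replicate 1) to -0.069 (Lmx1a in Cy5 only). Intensity scaling between arrays, the pool as a block on all arrays, another variance prior and filtering dim probes left these medians unchanged. Those alternatives therefore do not test the difference. The others reused the same RNA pools, and in pool 3 taken alone the core was not lower, at 0.0021. No proteasome probe passed limma's threshold under the alternatives, except in single dye orientations. With Lmx1a in Cy5 only 2 passed (1 of them Psmd5, 0.15, limma adjusted p = 0.0330), among 993 of all probes. With Lmx1a in Cy3 only 1 passed (Psma3, -0.20, limma adjusted p = 0.0382), among 215 of all probes. The replicate block, which pairs the 2 arrays of an RNA pool per the labels, called 0 of the 63 proteasome probes and 333 of all probes (342 without a dye term and 91 without the dimmest array, both chosen after seeing the data), against 0 without the block. It also called Cct6a (limma adjusted p = 0.0264), and without a dye term Sem1 (limma adjusted p = 0.0416). Median centring called 49 of all probes and moved the median of all probes to -0.019.

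The count of 5 dye-biased proteasome probes became 8 with no background subtraction, 0 with plain subtraction and 57 with median centring. It was 0 with an intensity trend and robust prior, and 0 to 2 when a pool was left out. Over all probes the count was 2160 in the main fit, 4261 with no background subtraction, 1 with plain subtraction and 24782 with median centring. It was 0 with the intensity trend and robust prior, and 503 to 1514 when a pool was left out.

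The alternatives named above that could not change a ratio are counted in the total that follows, so the share of reversals is understated. Of 832 values of 49 named genes under an alternative, 51 had the other sign. With Lmx1a in Cy3 only these were Cops2 (-0.019), Cops7a (0.016), Isg15 (-0.036), Nlrc5 (-0.057), Psma8 (-0.0020), Psmc6 (0.041), Psmd10 (-0.042), Psmd2 (-0.012), Psmd3 (-0.0055), Psmd4 (-0.022), Psmd5 (-0.073), Psme3ip1 (-0.020) and Psmf1 (-0.011). With Lmx1a in Cy5 only they were Psma3 (0.039), Psma5 (-0.075), Psmb10 (-0.010), Psmb7 (-0.021), Psmb9 (-0.016), Psmd9 (0.055), Psme1 (0.038), Psme3 (-0.017), Psme4 (0.055), Psmg1 (0.0089) and Stat2 (0.0025). Median centring reversed Cct4 (-0.044), Cops7a (0.011), Isg15 (-0.018), Psma1 (-0.014), Psma5 (-0.0051), Psmb7 (-0.021), Psmd2 (-0.018) and Psmd9 (0.035). The authors' ratios reversed Psma5 (-0.0032) and Psmd10 (-0.0068), and loess within print grids the same 2 genes (-0.0085 and -0.0031). The mean of all probes reversed Psmd2 (-0.024), Psmd9 (0.00082) and Psme4 (0.012). Psmd10 was also reversed with no background subtraction (-0.0040) and with plain subtraction (-0.0075). With a pool left out, Psmb10 ranged from -0.0083 to 0.050, Psmd10 from -0.014 to 0.032, Psmd2 from -0.022 to 0.017, Psmd9 from -0.022 to 0.014, Psme1 from -0.039 to 0.011, Psme2 from -0.10 to 0.0056, Psme4 from -0.073 to 0.0087 and Psmf1 from -0.0070 to 0.044. The cause of these reversals was not tested. Signal over background limits the dim probes, such as those of Psmg4 and Psmb9.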

Other observations

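The CCT chaperonin, which folds actin, tubulin and other cytosolic proteins, had means above 0 for 8 of 8 measured subunits, with a median of 0.070 against 0.0032 over all detected genes, but for 5 of 8, with a median of 0.0070 against 0.0068, after median centring in place of loess. The pool medians were 0.075, 0.12 and 0.0038, and the median was 0.043, with 7 of 8 above 0, without pool 2. Cct6a stood at 0.12 ± 0.026 with 6 of 6 arrays above 0 (limma adjusted p = 0.104, and 0.0264 with the replicate block). Cct7 stood at 0.084 ± 0.071 and Cct4 at 0.051 ± 0.029, and neither passed limma's test. The COP9 signalosome and eIF3, whose subunits share domains with the 19S lid, had 9 of 17 genes above 0 and a median of 0.0046. Cops2 stood at 0.061, Cops3 at 0.056 and Cops7a at -0.027, none past limma's threshold over the 3 pools. With the Lmx1a RNA in Cy5 only, Cops2 stood at 0.14 and was 1 of 993 probes that passed (limma adjusted p = 0.0322). In Cy3 only it stood at -0.019. Of the interferon list, Isg15 stood at 0.028, Nlrc5 at 0.026 and Stat2 at -0.030.

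The genes matched by spelling only gave -0.070 ± 0.013 for Psmb5-ps, 0.031 ± 0.0056 for Psmb6-ps, -0.060 ± 0.041 for Psmc3ip, a meiotic recombination factor, and 0.030 ± 0.038 for Psme3ip1. Psmc3ip was below 0 on 6 of 6 arrays (limma adjusted p = 0.360). A probe of a pseudogene may share sequence with its parent gene, and probe sequences were not used here. Markers of other cell types were detected on every array for 2 of 5 astrocyte, 2 of 4 oligodendrocyte, 1 of 4 microglia and leukocyte and 1 of 5 fibroblast genes.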
